A study of Mus musculus with 8 samples.

Results

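The 10 genes described here, Thoc2, Ttc14, Mphosph8, Gcc2, Pnisr, Tpr, Tut4, Rb1cc1, Rnpc3 and Tcf4, stood near 2-fold higher in 4 of the 8 spinal dorsal horn libraries of the series than in the other 4, and the high libraries came from both genotypes. They were chosen by their FPKM in the 8 libraries, for that order of values, and for AT-rich transcripts, out of 49585 gene identifiers in the files, of which 15061 had a mean of at least 1 FPKM and were tested. All 10 passed that filter. The high libraries were knock-out (KO) 1, 2 and 4 and wild-type (WT) 4, and the low ones KO 3 and WT 1, 2 and 3. Because these values chose the genes, the separation is given as a description, with no test.

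The series set 4 miR-96 knock-out mice beside 4 wild-type mice, all adult and of strain C57BL/6J, and its title names miR-96, allodynia (pain from harmless touch) and voltage-gated sodium channels. RNA came from the dorsal horn of lumbar segments 4 to 6, the part of the spinal cord that receives pain and touch input, and polyadenylated RNA was sequenced with a NEBNext Ultra kit. How the miR-96 allele was made, the sex of the mice and whether each library held 1 animal are not stated in the labels, so a p-value here reflects how far libraries of a genotype scatter, and that scatter may be technical in part. Mir96 itself was listed at 0 FPKM in all 8 libraries, and libraries of polyadenylated long RNA do not measure the mature microRNA, so this gives no check of the genotype labels. Each library held 24091 to 25560 genes above 0 and an estimated 31300000 to 42700000 fragments, and no tested gene had equal values in any pair of libraries. Neuronal marker genes summed to 1957 to 2086 FPKM in KO libraries and 2034 to 2257 FPKM in WT libraries, and markers of mature oligodendrocytes to 10208 to 11304 FPKM in KO and 9507 to 15380 FPKM in WT libraries, so both were abundant in every library.

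A messenger RNA is spliced, packed with export factors, passed through the nuclear pore and at last degraded from its ends. Thoc2, Tpr, Pnisr, Rnpc3 and Tut4 act along that path. Mphosph8 acts on chromatin, Rb1cc1 in autophagy, Gcc2 at the Golgi apparatus and Tcf4 as a transcription factor, so RNA processing does not cover the whole set. All are widely expressed genes.

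What the transcripts have in common can be read from their letters. The coding parts are shown as stretches of 90 bases within 1 coding exon, taken where the GC content lay nearest that of the whole coding part, 5′ to 3′ on the coding strand, from the GENCODE transcripts on GRCm38, with G and C in capitals. The first 4 belong to the set and carry its low GC content. The last belongs to Snrnp25, a protein of the same spliceosome as Rnpc3, which had 56.7% GC in its stretch and whose levels did not follow the set. Among the genes of that spliceosome tested here, Snrnp25 lay farthest from the set in profile, so its unlike levels are no finding. Its transcript was also short, at 821 bases.
Rnpc3, chr3:113624967-113625056, minus strand, exon 3 of 15: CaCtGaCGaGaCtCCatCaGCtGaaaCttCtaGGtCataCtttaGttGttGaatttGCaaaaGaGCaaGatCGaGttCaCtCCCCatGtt
Thoc2, chrX:41872591-41872680, minus strand, exon 6 of 39: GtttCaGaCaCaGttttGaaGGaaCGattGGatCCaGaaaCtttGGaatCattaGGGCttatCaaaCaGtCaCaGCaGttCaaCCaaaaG
Rb1cc1, chr1:6234270-6234359, plus strand, exon 5 of 24: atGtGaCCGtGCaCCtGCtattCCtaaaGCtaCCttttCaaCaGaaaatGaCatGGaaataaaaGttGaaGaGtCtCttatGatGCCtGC
Mphosph8, chr14:56672420-56672509, plus strand, exon 2 of 14: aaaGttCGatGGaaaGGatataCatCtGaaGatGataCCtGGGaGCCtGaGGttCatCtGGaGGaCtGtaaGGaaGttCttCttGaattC
Snrnp25, chr11:32207569-32207658, plus strand, exon 3 of 5: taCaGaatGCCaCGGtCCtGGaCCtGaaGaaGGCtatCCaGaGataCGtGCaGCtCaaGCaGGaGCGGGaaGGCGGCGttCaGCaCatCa
The Rnpc3 and Mphosph8 stretches each held 42.2% GC and those of Thoc2 and Rb1cc1 40.0%. Runs of up to 4 A stood in the Rnpc3, Thoc2 and Rb1cc1 stretches and of up to 3 in that of Mphosph8, against 2 in Snrnp25.

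The start regions of the same genes were not AT-rich. RefSeq promoters (GRCm38.p6, 250 bases before to 50 after the start) were matched by symbol for 6 of the 10 genes, all but Ttc14, Pnisr, Rb1cc1 and Tcf4. The promoter of Rnpc3, which had the lowest GC content of the 6, and that of Mphosph8 are printed to show the contrast with the coding stretches, with CG pairs in capitals.
Rnpc3, chr3:113630100-113630399, minus strand: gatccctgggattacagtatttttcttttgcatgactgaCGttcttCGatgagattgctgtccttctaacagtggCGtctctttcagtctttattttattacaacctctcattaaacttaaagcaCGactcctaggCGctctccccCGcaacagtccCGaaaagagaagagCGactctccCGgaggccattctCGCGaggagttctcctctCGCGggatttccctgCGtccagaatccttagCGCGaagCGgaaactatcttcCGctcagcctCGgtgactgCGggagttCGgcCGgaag
Mphosph8, chr14:56667998-56668297, plus strand: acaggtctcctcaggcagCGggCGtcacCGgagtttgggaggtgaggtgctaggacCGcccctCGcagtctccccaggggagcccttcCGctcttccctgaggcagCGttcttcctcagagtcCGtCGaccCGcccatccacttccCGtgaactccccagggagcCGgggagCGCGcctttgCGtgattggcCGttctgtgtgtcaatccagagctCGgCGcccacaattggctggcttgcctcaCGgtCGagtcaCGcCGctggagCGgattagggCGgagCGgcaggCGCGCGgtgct
Promoter GC content ran from 51.7% in Rnpc3 to 68.0% in Tut4, with a median of 61.2% over the 6 genes and 61.3% over 10850 promoters of tested genes. CG pairs numbered 17 in Tpr to 30 in Gcc2, with a median of 25 against 21. Of 4 motifs searched as exact letters on both strands, none of which contains another, GGGCGGGG (the SP1 motif) stood in 1 of the 6 promoters, that of Tpr, and in 33.5% of all. CCGGAAGT (ETS), TGACGTCA (CRE) and TATAAA stood in none of the 6, and in 7.91%, 3.24% and 6.74% of all.

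Thoc2 encodes the scaffold subunit of the THO complex, which couples transcription to messenger RNA export (chrX:41794991-41920674, minus strand, ENSMUSG00000037475). It measured 35.1, 33.5, 17.2 and 34.5 FPKM (fragments scaled to transcript length and to the mapped fragments of the library) in KO 1 to 4, against 16.9, 16.8, 16.2 and 31.6 FPKM in WT 1 to 4. KO 3 lay with the low WT libraries and WT 4 with the high KO libraries, and the genotypes overlapped. The lowest of the 4 high libraries was 1.84 times the highest of the 4 low ones, the widest separation of the set. Thoc2 averaged 30.1 ± 8.64 FPKM in KO and 20.4 ± 7.47 FPKM in WT libraries (SD, n = 4 each). In these bulk libraries, fewer cells of a type and less RNA per cell cannot be told apart.

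Tpr encodes the filament of the nuclear basket, the inner face of the pore, which lies downstream of Thoc2 on the export path (chr1:150392838-150449935, plus strand, ENSMUSG00000006005). Its level was 61.4, 54.7, 29.6 and 56.1 FPKM in KO 1 to 4, against 24.2, 24.3, 30.2 and 54.3 FPKM in WT 1 to 4. The same 4 libraries were high, 1.80-fold apart from the rest, and KO 3 and WT 3 stood a little above WT 1 and WT 2. Group values were 50.4 ± 14.2 FPKM in KO and 33.3 ± 14.3 FPKM in WT libraries (SD, n = 4 each). Odr4, which overlaps Tpr on the opposite strand, measured 31.6, 29.9, 19.7 and 34.9 FPKM in KO 1 to 4, against 29.2, 15.4, 20.3 and 34.5 FPKM in WT 1 to 4. Odr4 thus also had the same 4 libraries highest, with WT 1 just below them. Prg4, a joint lubricant gene that overlaps Tpr on the same opposite strand, did not, at 12.6, 4.43, 6.56 and 0.338 FPKM in KO 1 to 4 against 3.54, 0.798, 7.55 and 3.30 FPKM in WT 1 to 4.

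Pnisr, an arginine and serine-rich protein of nuclear speckles that binds the splicing cofactor pinin, was the most abundant of the 10 per length (chr4:21847583-21876475, plus strand, ENSMUSG00000028248). KO 1 to 4 held 174, 187, 101 and 206 FPKM of Pnisr, against 87.3, 78.5, 91.8 and 184 FPKM in WT 1 to 4. The highest library was KO 4 and the lowest WT 2, and KO 1, the lowest of the high libraries, stood 1.71-fold above KO 3, the highest of the low ones. Means were 167 ± 45.7 FPKM in KO and 110 ± 49.4 FPKM in WT libraries (SD, n = 4 each).

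Rnpc3 encodes the U11/U12 65K protein, which bridges the particles that recognise the rare minor class of introns (chr3:113605067-113630149, minus strand, ENSMUSG00000027981). Its values were 21.9, 19.0, 8.70 and 18.6 FPKM in KO 1 to 4, against 10.8, 8.65, 10.2 and 18.8 FPKM in WT 1 to 4. KO 3 and WT 2 were nearly level at the bottom, KO 1 was highest, and the gap between the high and the low libraries was 1.73-fold. The gene averaged 17.0 ± 5.75 FPKM in KO and 12.1 ± 4.53 FPKM in WT libraries (SD, n = 4 each). Amy1, an amylase gene, overlaps Rnpc3 on the same strand and read 18.1, 19.6, 7.77 and 17.7 FPKM in KO 1 to 4, against 41.9, 8.24, 10.1 and 19.3 FPKM in WT 1 to 4. Apart from WT 1, where Amy1 was at its highest and Rnpc3 was low, the overlapping pair ran alike, and how the authors' counting shared reads between them is not given in the sources used here.

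Tut4, a uridylyltransferase that adds uridines to the 3′ ends of RNA and so marks messenger RNA and some microRNA precursors for decay, was the least abundant (chr4:108459426-108559421, plus strand, ENSMUSG00000034610). It measured 17.1, 17.8, 10.4 and 17.3 FPKM in KO 1 to 4, against 9.50, 9.89, 9.58 and 16.3 FPKM in WT 1 to 4. KO 1, 2 and 4 and WT 4 lay within 1.09-fold of each other, WT 4 the lowest of them, and the separation from the low libraries was 1.57-fold. Tut4 averaged 15.6 ± 3.50 FPKM in KO and 11.3 ± 3.33 FPKM in WT libraries (SD, n = 4 each).

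Ttc14, a protein with tetratricopeptide repeats and a predicted RNA-binding domain, is little studied (chr3:33799832-33814860, plus strand, ENSMUSG00000027677). Its values were 53.8, 52.5, 25.7 and 50.3 FPKM in KO 1 to 4, against 24.0, 23.6, 25.6 and 46.9 FPKM in WT 1 to 4. The 4 low libraries lay within 1.09-fold of each other and the gap was 1.82-fold. Means were 45.6 ± 13.3 FPKM in KO and 30.0 ± 11.3 FPKM in WT libraries (SD, n = 4 each). Ccdc39, a cilium gene on the opposite strand, overlaps it and read 9.06, 10.1, 4.95 and 8.67 FPKM in KO 1 to 4, against 6.05, 4.36, 4.80 and 10.3 FPKM in WT 1 to 4, with the same 4 libraries highest. Since strand use in counting is not given in the sources used here, reads of such overlapping pairs cannot be told apart.

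Mphosph8 is the chromodomain subunit of the HUSH complex, which reads trimethylated histone H3 lysine 9 and silences mobile elements (chr14:56668248-56697430, plus strand, ENSMUSG00000079184). Levels in KO 1 to 4 were 46.3, 45.4, 22.0 and 45.6 FPKM, against 21.8, 23.4, 25.7 and 44.9 FPKM in WT 1 to 4. The high libraries agreed within 1.03-fold, the closest of the 10 genes, and stood 1.75-fold above WT 3, the highest of the low libraries. Mphosph8 averaged 39.8 ± 11.9 FPKM in KO and 29.0 ± 10.8 FPKM in WT libraries (SD, n = 4 each).

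Gcc2 encodes a golgin that tethers vesicles returning to the trans-Golgi (chr10:58255497-58305599, plus strand, ENSMUSG00000038039). It was the only one of the 10 highest in a wild-type library, with 28.6, 29.1, 13.9 and 27.3 FPKM in KO 1 to 4 against 16.3, 13.8, 14.5 and 31.4 FPKM in WT 1 to 4. KO 3 and WT 2 were level at the bottom, and the gap was 1.68-fold. The means were 24.7 ± 7.28 FPKM in KO and 19.0 ± 8.32 FPKM in WT libraries (SD, n = 4 each).

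Rb1cc1, also called FIP200, is the scaffold of the ULK kinase complex that starts autophagy (chr1:6206197-6276648, plus strand, ENSMUSG00000025907). KO 1 to 4 measured 44.4, 43.4, 24.0 and 40.0 FPKM, against 25.1, 20.1, 22.5 and 43.0 FPKM in WT 1 to 4. WT 4 lay between the high KO libraries and KO 3 between the low WT ones, with a gap of 1.59-fold. Rb1cc1 averaged 38.0 ± 9.47 FPKM in KO and 27.7 ± 10.4 FPKM in WT libraries (SD, n = 4 each).

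Tcf4 encodes an E protein, a helix-loop-helix factor of neuronal development (chr18:69343356-69689079, plus strand, ENSMUSG00000053477). Its values were 77.7, 78.0, 47.9 and 81.8 FPKM in KO 1 to 4, against 50.5, 41.5, 45.7 and 77.7 FPKM in WT 1 to 4. The separation was 1.54-fold, the smallest of the set, and KO 3 lay between WT 1 and WT 3. The gene averaged 71.4 ± 15.8 FPKM in KO and 53.8 ± 16.3 FPKM in WT libraries (SD, n = 4 each). Just inside and just outside that edge, the peptide gene Spx had a ratio of 1.541 and Fgd4, which activates Cdc42, one of 1.537, so the set has no natural border there.

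**Figure D1:**
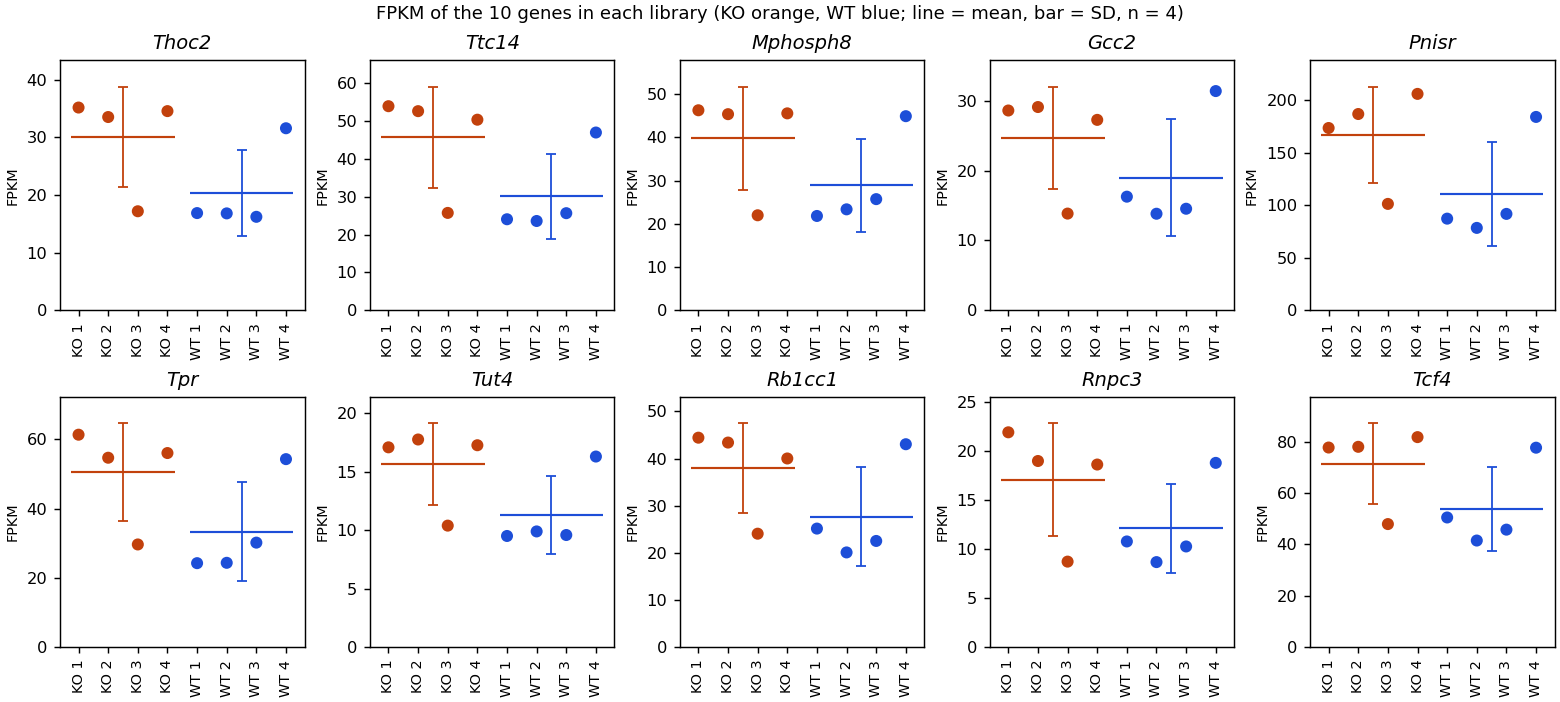
FPKM of each of the 10 genes (vertical axes from 0) in KO 1 to 4 (orange) and WT 1 to 4 (blue), with the group mean as a line and the SD as a bar (n = 4). In every panel KO 3 lies with WT 1 to 3 and WT 4 with the other KO libraries, as for Thoc2, where KO 3 had 17.2 FPKM and WT 4 had 31.6 FPKM.

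Across the set the gap ran from 1.54-fold (Tcf4) to 1.84-fold (Thoc2), with a median of 1.72-fold. Within the 4 high libraries a gene varied by 1.03-fold to 1.19-fold, and within the 4 low ones by 1.06-fold to 1.29-fold. KO 1 was the highest library for 6 genes (Thoc2, Ttc14, Mphosph8, Tpr, Rb1cc1, Rnpc3), KO 4 for Pnisr and Tcf4, KO 2 for Tut4 and WT 4 for Gcc2. WT 2 was the lowest for 6 (Ttc14, Gcc2, Pnisr, Rb1cc1, Rnpc3, Tcf4), WT 1 for Mphosph8, Tpr and Tut4, and WT 3 for Thoc2. Counting error is small beside these gaps, since the 10 genes drew an estimated 1289 to 31764 fragments per library, which gives a counting error of 2.79% to 0.561%.

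Ordered by mean FPKM over the 8 libraries, the genes ran Pnisr (139), Tcf4 (62.6), Tpr (41.8), Ttc14 (37.8), Mphosph8 (34.4), Rb1cc1 (32.8), Thoc2 (25.2), Gcc2 (21.9), Rnpc3 (14.6) and Tut4 (13.5). The median tested gene had a mean of 12.7 FPKM. Neighbours in this order from Tcf4 down to Tut4 had overlapping ranges over the libraries, and so had Pnisr and Tcf4, though within each library Pnisr was the higher. As deviations of log2(FPKM + 1) from each gene's own mean, averaged over the 10 genes, KO 1 to 4 stood at 0.50, 0.47, −0.43 and 0.46 and WT 1 to 4 at −0.44, −0.56, −0.43 and 0.43. A single gene differed from this mean profile by a root mean squared difference of 0.054 (Thoc2) to 0.12 (Pnisr), while the median tested gene differed by 0.50.

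KO 1, 2 and 4 and WT 4 were the 4 highest libraries in 11.4% of all tested genes (1719) and the 4 lowest in 12.3% (1847), so the order itself was common in both directions. A separation at least as wide as that of Tcf4 was rare, at 0.325% of tested genes. Those 49 genes, the 10 included, had a median transcript GC content of 41.2% against 50.6% over all tested genes and a median length of 5865 against 2800 bases. These counts rest on the same values that chose the 10 genes and are a description.

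The 10 transcripts were long as well as AT-rich, measured on the longest complete coding transcript of each gene among 13204 tested protein-coding genes. GC content ran from 35.6% in Rnpc3, 37.5% in Thoc2 and 39.1% in Rb1cc1 to 48.3% in Tcf4, with a median of 41.3% against 50.8% over all, and all 10 lay below the median of all genes. At the third codon position the median was 39.1% GC against 61.4%, again with 10 of 10 below. The coding part of Tcf4 was the exception, with 54.5% GC against a median of 53.4% over all genes. Low GC content was part of how the genes were chosen, so it is no finding about them.

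Length was not named in that choice, but it is not independent of it. The same libraries were highest in 33.2% of the longest decile of tested genes and in 3.39% of the shortest. The median transcript was 5205 bases against 3034, with Ttc14 (2684) and Mphosph8 (2939) below the median of all genes and Thoc2 (7622) and Rb1cc1 (7607) at the top. Coding parts had a median of 3669 against 1404 bases, and the shortest, that of Rnpc3, had 1542. Exons numbered 12 (Ttc14, Pnisr) to 52 (Tpr), with a median of 22 against 9, and annotated transcripts 5 (Mphosph8) to 62 (Tcf4), with a median of 12.5 against 5. The 3′ untranslated regions had a median of 1353 against 990 bases, and that of Tpr only 28. The genes lie on 7 chromosomes.

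**Figure D2:**
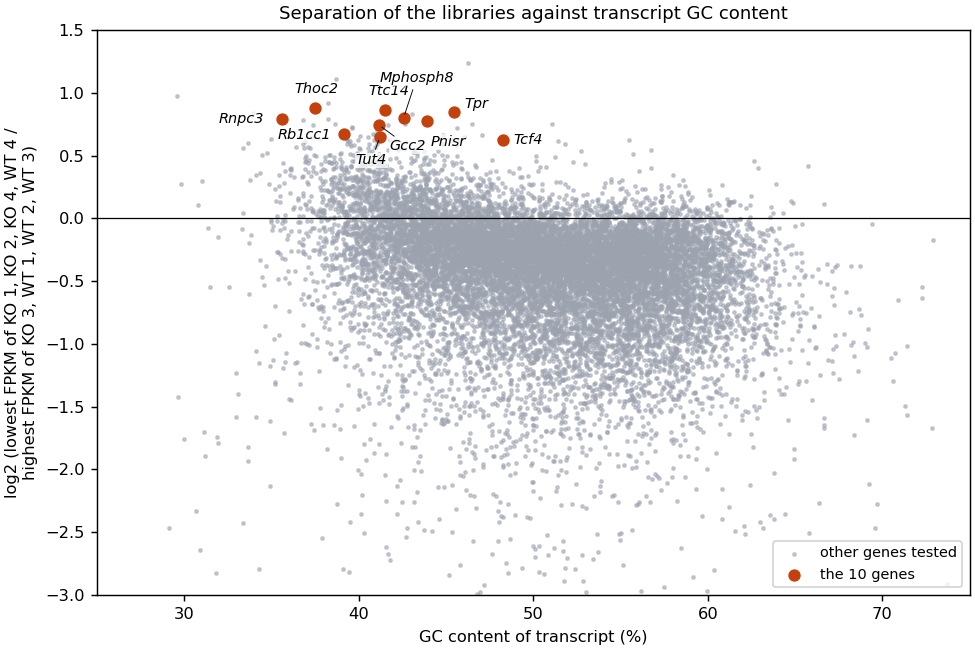
Each tested gene by transcript GC content (horizontal, %) and by the log2 of the lowest FPKM among KO 1, KO 2, KO 4 and WT 4 over the highest among KO 3 and WT 1 to 3 (vertical, above 0 when the 4 libraries are the highest); 170 genes without a value or beyond the axes are not drawn. The 10 genes (orange) lie at 35.6% to 48.3% GC near the top, where few other genes (grey) stand.

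All tested genes showed related trends between libraries. Of the decile of genes with the lowest GC content, which holds 6 of the 10, 39.4% had the same 4 libraries highest, against 4.79% of the decile with the highest. By length, which the choice did not name, the share was 33.2% in the longest decile, which holds 4 of the 10, and 3.39% in the shortest. Genes in both the lowest tercile by GC content and the longest tercile had it in 39.4% (860 of 2183), and this class holds 7 of the 10 genes and 35 of the 49 widest.

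The libraries themselves ordered alike on GC content. The median deviation of the AT-richest decile minus that of the GC-richest decile, on the log2(FPKM + 1) scale, was 0.21, 0.15, −0.079 and 0.18 in KO 1 to 4 and −0.26, −0.25, −0.11 and 0.15 in WT 1 to 4. KO 3 and WT 1 to 3 were below 0 and the other 4 above. On length, the longest minus the shortest decile gave 0.23, 0.23, 0.020 and 0.076 in KO 1 to 4 and −0.66, −0.091, −0.026 and 0.21 in WT 1 to 4. WT 1 stood apart in length, but in the 10 genes it lay among the other low libraries. RNA integrity, extraction day and sequencing run are not given in the labels, and their part in the separation was not tested.

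**Figure D3:**
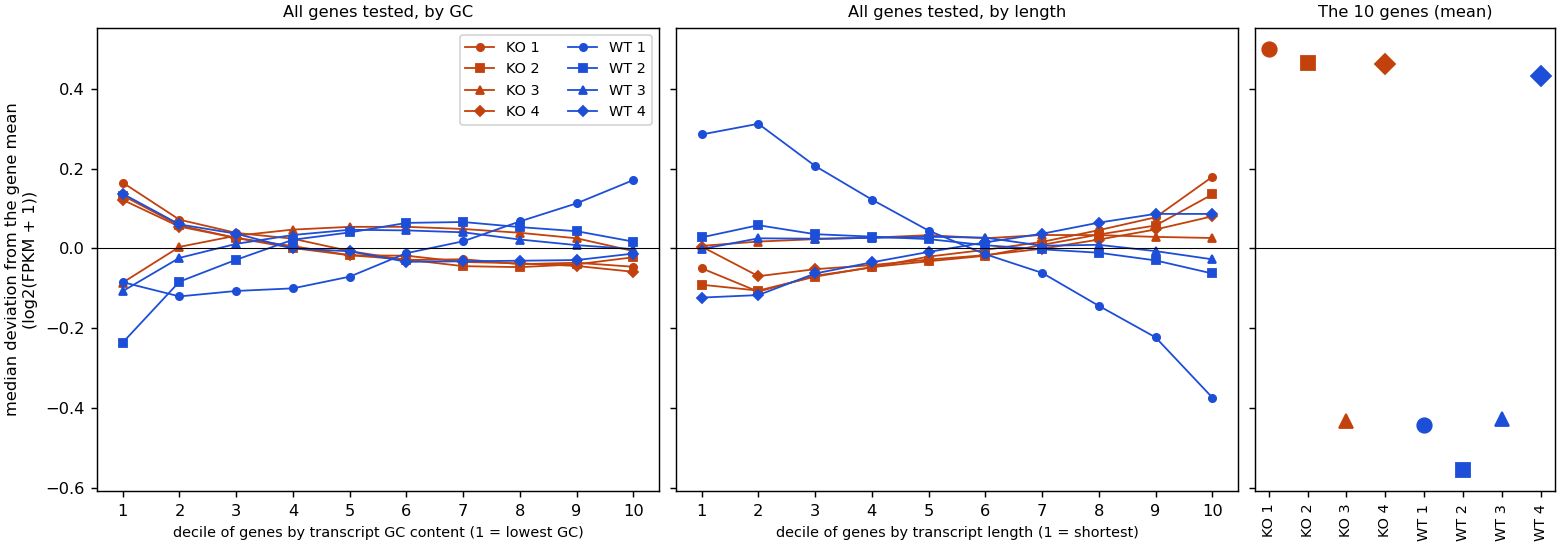
Median deviation from the gene mean (vertical, log2(FPKM + 1)) of all tested genes in deciles by transcript GC content (left) and length (middle), and the mean of the 10 genes (right), for KO 1 to 4 (orange) and WT 1 to 4 (blue). In the lowest GC decile the libraries ran from −0.24 (WT 2) to 0.17 (KO 1), while the 10 genes ran from −0.56 to 0.50 in these libraries.

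With a smooth trend on length and on GC content taken out of each library, the split into 4 high and 4 low libraries in the 10 genes stayed and the separation narrowed. The mean profile was then 0.33, 0.34, −0.38 and 0.35 in KO 1 to 4 and −0.23, −0.37, −0.35 and 0.31 in WT 1 to 4. KO 4 was then the highest and KO 3 the lowest, where KO 1 and WT 2 had been. The range of the mean profile was 0.74 after both trends were removed, 0.75 after GC alone and 0.91 after length alone, against 1.05 in the deposited values. All 10 genes had the same 4 libraries highest under each of these settings. Over all tested genes, the number with that order fell from 1719 of 15061 to 1061 of 15023 with both trends removed. It was 1438 after GC alone and 1182 after length alone. The 10 genes were chosen for this separation, so that they kept the order follows in part from the choice. Thoc2 ran from −0.35 (WT 3) to 0.33 (KO 4) after both trends against −0.53 (WT 3) to 0.54 (KO 1) before. Rb1cc1 in WT 1 came to 0.015, below the 0.18 of KO 4, the lowest of its high libraries. Ttc14 narrowed little, to −0.53 (WT 1) to 0.50 (KO 1) from −0.57 (WT 2) to 0.59 (KO 1).

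The genes most like the set in profile, among 10722 other genes with a mean of at least 5 FPKM, included Gria2, Akap9, Zfc3h1, Col24a1, Dzip3, Bicd1, Zfp638, Epha5 and Bod1l, with the nearest 10 at root mean squared differences of 0.059 to 0.10 over the 8 libraries. Nearest was Gria2, the AMPA glutamate receptor subunit that keeps the channel closed to calcium, with 77.2, 81.8, 44.8 and 77.8 FPKM in KO 1 to 4 against 40.1, 39.9, 39.8 and 78.5 FPKM in WT 1 to 4. Of the 10, only Thoc2 lay closer to the mean profile than Gria2 did. The 10 neighbours had transcripts of 2928 to 13123 bases and 36.8% to 51.0% GC, and 18 of the candidates lay within the distance of Pnisr, the farthest of the set. Col24a1, a collagen gene, had the highest GC content among them.

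The partners of the 10 genes, from lists of complexes and families, were followed to see whether they moved with them. Of 150 tested partners, 33 (22.0%) had the same 4 libraries highest, against 11.4% of all tested genes, and 13 had them lowest, against 12.3%. None passed the adjusted threshold between genotypes by limma and 9 had an unadjusted p under 0.05, where 5.52% of all tested genes had one. The 33 partners had a median GC content of 44.3% and a length of 4226 bases, and the 13 with the reverse order 52.3% and 1353 bases. GC content did not sort all partners. Thoc1 (40.2% GC), Tent2 (39.9%), Srsf3 (40.0%), Id4 (42.6%) and Arl1 (43.3%) lacked the order, while Golga4 (50.2%) had it.

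In the export machinery around Thoc2, 1 of 15 tested partners had the order, Zc3h11a, a zinc finger protein of the export complex, and 3 had the reverse (Chtop, Alyref and Nxt1). Zc3h11a measured 9.93, 9.28, 7.02 and 7.42 FPKM in KO 1 to 4 against 3.39, 4.39, 5.29 and 7.02 FPKM in WT 1 to 4, with KO 3 and WT 4 level. Thoc1, the direct partner of Thoc2 in THO, measured 14.1, 14.7, 11.6 and 15.4 FPKM in KO 1 to 4 against 17.1, 10.5, 11.2 and 15.9 FPKM in WT 1 to 4, where WT 1 was the highest. Sarnp was the farthest, at 15.6, 14.1, 12.1 and 7.70 FPKM in KO 1 to 4 against 24.4, 7.56, 9.54 and 7.88 FPKM in WT 1 to 4. The median log2 fold change of the list, KO minus WT, was −0.031, against 0.014 over all tested genes.

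Around Tpr, 1 of 29 tested nuclear pore genes had the order and 3 the reverse (Rae1, Sec13 and Nup62). The first was Ranbp2, the cytoplasmic filament of the pore and, like Tpr, a giant protein, with 11.9, 10.2, 5.60 and 8.80 FPKM in KO 1 to 4 against 4.53, 5.16, 5.85 and 9.02 FPKM in WT 1 to 4. Ahctf1, which seeds pore assembly, measured 23.0, 19.6, 16.3 and 17.1 FPKM in KO 1 to 4 against 13.7, 14.1, 17.6 and 20.2 FPKM in WT 1 to 4, so WT 3 stood above KO 4. Nup43 was the farthest, at 3.70 to 5.88 FPKM in KO and 4.75 to 6.13 FPKM in WT libraries. The median of the pore list was 0.085.

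Of the minor spliceosome around Rnpc3, 1 of 9 tested partners had the order, Snrnp48, an AT-rich (39.8%) member of the U11 particle, and 2 had the reverse (Zmat5 and Scnm1). Snrnp48 measured 16.2, 16.9, 14.0 and 18.7 FPKM in KO 1 to 4 against 14.2, 11.5, 13.8 and 19.0 FPKM in WT 1 to 4, with a gap of 1.14-fold where Rnpc3 had 1.73-fold. Zrsr2, which recognises the 3′ splice site of minor introns, had WT 1 among its high libraries, at 51.8 FPKM. Snrnp25, the GC-rich contrast printed above, measured 22.6, 24.2, 25.4 and 25.4 FPKM in KO 1 to 4 against 46.9, 25.8, 31.3 and 20.7 FPKM in WT 1 to 4. It was highest in WT 1 and lowest in WT 4, so proteins of 1 particle had different profiles.

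The list around Pnisr held splicing proteins rich in serine and arginine (SR proteins) and related splicing genes, kinases among them. Of the protein-coding lists it had the order most often, at 19 of 33 tested (57.6%) with none in reverse, against 11.4% of all tested genes. The nearest was Srek1, at 50.2, 51.7, 32.2 and 56.1 FPKM in KO 1 to 4 against 33.3, 24.5, 31.3 and 55.1 FPKM in WT 1 to 4. Prpf4b, a kinase of spliceosomal proteins, measured 22.9, 23.0, 14.1 and 22.7 FPKM in KO 1 to 4 against 10.8, 10.5, 14.3 and 25.2 FPKM in WT 1 to 4, a gap of 1.59-fold. Srsf6 had the order by a gap of only 1.006-fold, and Prpf4b alone of the 33 had one at least as wide as that of Tcf4. Srsf3, a classical SR protein with 40.0% GC, had no such gap, at 60.7 to 73.0 FPKM in KO and 63.6 to 73.5 FPKM in WT libraries. The list had a median GC content of 44.9% and a median log2 fold change of 0.21. At unadjusted p under 0.05 by limma stood 2 of the 33, against 5.52% of all tested genes.

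Around Mphosph8, 3 of 9 tested genes of the HUSH complex and of H3K9 methylation had the order and none the reverse. Atrx, a chromatin remodeller, measured 89.7, 83.7, 44.9 and 73.9 FPKM in KO 1 to 4 against 49.4, 37.1, 40.0 and 75.2 FPKM in WT 1 to 4. Fam208a (TASOR), the HUSH scaffold, measured 7.38, 8.74, 5.13 and 8.67 FPKM in KO 1 to 4 against 4.78, 4.11, 4.72 and 8.46 FPKM in WT 1 to 4. The gaps were 1.495-fold for Atrx and 1.44-fold for Fam208a, while Suv39h1, a histone methyltransferase, ran from 4.31 to 4.94 FPKM in KO and 5.20 to 5.68 FPKM in WT libraries with no overlap between genotypes, as 3.03% of all tested genes had. KO minus WT came to −0.20 on the log2 scale, with SE 0.093 and an adjusted p of 0.62 by limma.

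Among enzymes of RNA tailing and decay, the field of Tut4, 2 of 18 tested had the order and 1 the reverse (Exosc2). Xrn1, the main 5′ exonuclease of the cytoplasm, measured 10.3, 10.8, 8.72 and 9.63 FPKM in KO 1 to 4 against 7.29, 8.07, 7.76 and 9.21 FPKM in WT 1 to 4, a gap of 1.06-fold. Tent2, a poly(A) polymerase, was at 7.39 to 7.80 FPKM in KO and 5.08 to 7.0 FPKM in WT libraries, with no overlap, as 3.03% of all tested genes had, and an adjusted p of 0.62 by limma. Exosc4, a subunit of the RNA exosome with 54.9% GC, was highest in WT 1 at 20.0 FPKM.

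Of 11 golgins and their GTPases tested beside Gcc2, 2 had the order, both large coiled-coil proteins, and none the reverse. Trip11 measured 25.8, 24.7, 15.1 and 23.5 FPKM in KO 1 to 4 against 13.4, 13.4, 13.5 and 21.7 FPKM in WT 1 to 4. Golga4 measured 72.1, 67.2, 49.6 and 69.2 FPKM in KO 1 to 4 against 40.8, 40.3, 49.1 and 64.4 FPKM in WT 1 to 4. Arl1, the small GTPase that recruits golgins, had no such gap, at 108, 107, 121 and 123 FPKM in KO 1 to 4 against 140, 121, 117 and 114 FPKM in WT 1 to 4. The list's median log2 fold change was 0.14, with 3 of the 11 at unadjusted p under 0.05 by limma, against 5.52% of all tested genes.

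None of 13 tested partners of Rb1cc1 in autophagy initiation and none of 6 E proteins and Id inhibitors beside Tcf4 had the order, while 1 autophagy gene (Atg101) and 2 of the 6 (Id2 and Id3) had the reverse. Ulk2, a kinase of the complex built on Rb1cc1, measured 25.4, 25.2, 25.3 and 24.4 FPKM in KO 1 to 4 against 20.9, 22.7, 24.4 and 25.4 FPKM in WT 1 to 4. Pik3r4 ran from 15.0 to 16.8 FPKM in KO and 10.7 to 16.7 FPKM in WT libraries, and Atg101 from 13.6 to 17.2 FPKM in KO and 13.5 to 18.5 FPKM in WT libraries. Tcf12, the E protein nearest to Tcf4, measured 27.1, 26.4, 25.7 and 28.0 FPKM in KO 1 to 4 against 21.3, 23.0, 23.9 and 24.4 FPKM in WT 1 to 4. Its genotypes did not overlap, as 3.03% of all tested genes had, and KO 3 stayed with the other KO libraries, unlike in Tcf4. KO minus WT for Tcf12 came to 0.21 on the log2 scale, with SE 0.079 and an adjusted p of 0.62 by limma. Id4 overlapped between genotypes, at 57.1 to 65.3 FPKM in KO and 49.7 to 72.3 FPKM in WT libraries, and Id2 measured 34.3, 35.1, 43.5 and 40.4 FPKM in KO 1 to 4 against 59.9, 48.8, 48.9 and 31.8 FPKM in WT 1 to 4.

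Long noncoding RNAs that stay in the nucleus were followed beside the coding genes, and 4 of 7 tested had the order and 1 the reverse. Snhg11 measured 1129, 1205, 811 and 1225 FPKM in KO 1 to 4 against 841, 673, 782 and 1365 FPKM in WT 1 to 4. Meg3, an imprinted RNA, measured 2120, 2427, 1594 and 2744 FPKM in KO 1 to 4 against 1230, 1294, 1605 and 2249 FPKM in WT 1 to 4. Malat1, a nuclear speckle RNA, differed from the set more than any other gene of the lists, though its transcript had 42.5% GC and 6983 bases. It measured 192, 162, 672 and 174 FPKM in KO 1 to 4 against 219, 550, 635 and 140 FPKM in WT 1 to 4. The 4 libraries high for the set were the 4 lowest for Malat1, the reverse order, with WT 1 only a little above them and KO 3, WT 2 and WT 3 well above.

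**Figure D4:**
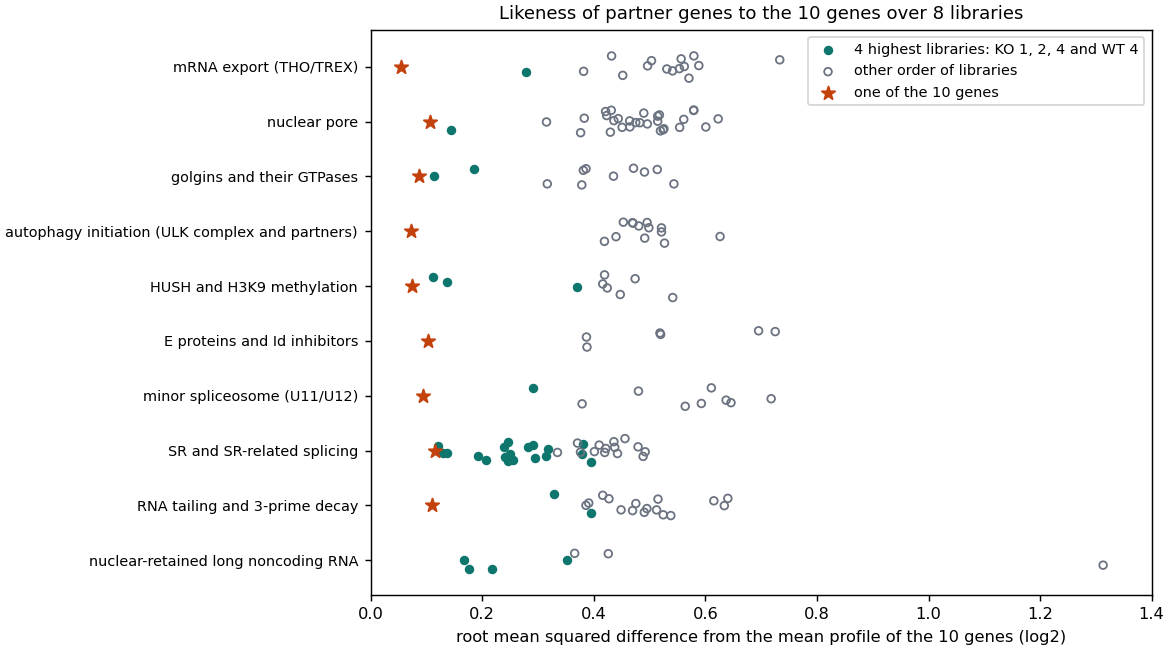
Root mean squared difference (log2) of each tested partner from the mean profile of the 10 genes over 8 libraries, in rows by list, with the member of the set as a star; filled points are partners whose 4 highest libraries were KO 1, 2 and 4 and WT 4. Filled points are most frequent among SR and SR-related splicing genes (19 of 33), none stand in the autophagy and E protein rows, and Malat1 lies at 1.31 at the far right.

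Among markers of cell types, 2 of 9 neuronal markers had the same 4 libraries highest, against 11.4% of all tested genes, and no other list had such a marker. The reverse, with these 4 lowest, held for 4 of 7 mature oligodendrocyte markers, against 12.3% of all tested genes, for 1 of 6 astrocyte markers and for 1 of 6 endothelial and mural markers. Astrocyte markers summed to 1081, 1083, 1236 and 1234 FPKM in KO 1 to 4 and to 1499, 1226, 1309 and 977 FPKM in WT 1 to 4, with WT 4, KO 1 and KO 2 the 3 lowest and KO 4 just above WT 2. Mature oligodendrocyte markers summed to 10208, 10997, 10767 and 11304 FPKM in KO 1 to 4 and to 15380, 10656, 11641 and 9507 FPKM in WT 1 to 4, with WT 1 highest and WT 4 lowest. Schwann cell markers, a sign of nerve root in the piece, summed to 464 to 1078 FPKM in KO and 528 to 1087 FPKM in WT libraries, with KO 3 and WT 2 the highest. Blood markers summed to 20.9 to 58.2 FPKM in KO and 7.20 to 212 FPKM in WT libraries, with WT 1 highest and WT 4 lowest. Motor and cholinergic neuron markers, a sign of ventral horn, summed to 42.6, 20.1, 7.85 and 25.8 FPKM in KO 1 to 4 and to 8.79, 31.1, 27.7 and 8.53 FPKM in WT 1 to 4, so among the high libraries of the set KO 1 was the highest here and WT 4 near the lowest. No list had a marker at 0 in all libraries, and the part of cell makeup in the separation was not tested.

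Between genotypes, all 10 genes had a higher mean in KO, as 53.1% of tested genes had, but 3 of the 4 high libraries were KO libraries, so this direction follows from how the genes were chosen. No gene of the 10 had KO and WT libraries that did not overlap, against 3.03% of tested genes. With WT 4 chosen as high and KO 3 as low, this overlap was fixed by the choice. The same choice widens the scatter within each genotype, so it also shapes the p-values below. The log2 fold changes on the log2(FPKM + 1) scale, which understates low genes, ran from 0.38 (SE 0.29, Gcc2) to 0.63 (SE 0.29, Pnisr). By limma with Benjamini-Hochberg adjustment over 15061 genes, 0 of the 10 passed an adjusted p of 0.05, as 0.0% of all genes did, with adjusted p of 0.62 to 0.627. At an unadjusted p under 0.05 by limma stood 0 of the 10, against 5.52% of all tested genes (831), or 3.69% counting only genes higher in KO. The median of the 10 was 0.46 and that of all tested genes 0.014.

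Without KO 3, or without WT 4, the 2 libraries that lay with the other genotype, all 10 genes had an unadjusted p under 0.05 by limma, and none passed after adjustment (lowest adjusted p = 0.491 and 0.198). Of all 15061 tested genes, 1438 had such an unadjusted p without KO 3 and 3151 without WT 4. The 10 genes were chosen with KO 3 low and WT 4 high, so their low p-values follow from the choice and support nothing. The log2 fold change of Gcc2 was 0.64 without WT 4, and those of Mphosph8 and Rnpc3 were 0.70 and 0.72 without KO 3. With the trends on length and GC content removed, the fold changes of Gcc2, Rb1cc1, Tut4, Rnpc3 and Thoc2 came to 0.15 to 0.24, while Pnisr and Ttc14 were at 0.50 and 0.51.

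**Figure D5:**
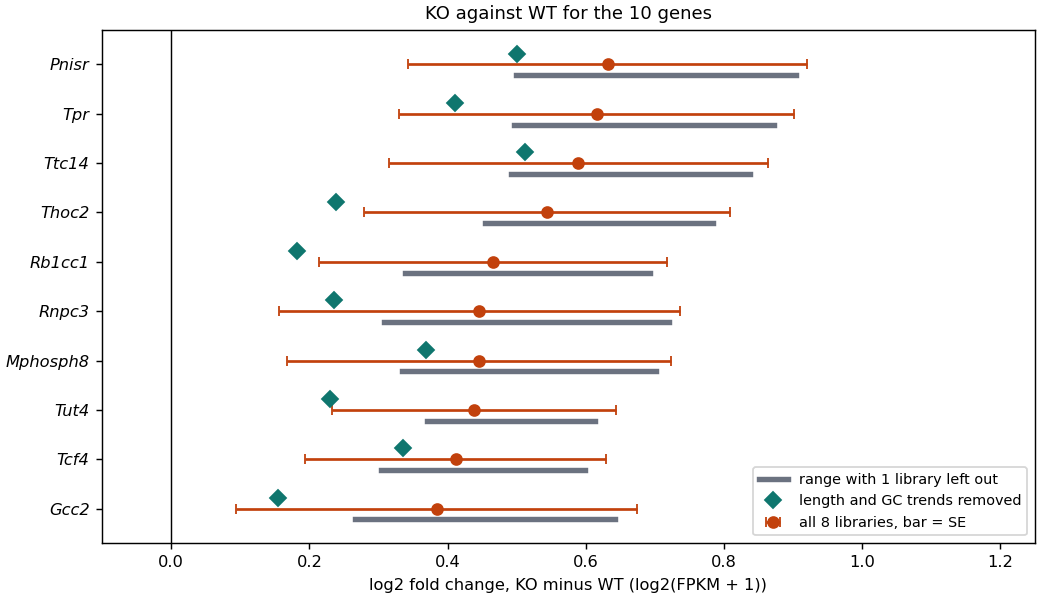
Log2 fold change of each of the 10 genes, KO minus WT (horizontal, log2(FPKM + 1)), with all 8 libraries (orange, bar = SE), over fits that each leave out 1 library (grey range) and with length and GC trends removed (green). All values lie above 0, from 0.15 (Gcc2, trends removed) to 0.91 (Pnisr, without WT 4), and none passed the adjusted threshold.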

How the data were processed

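Polyadenylated RNA of 4 KO and 4 WT dorsal horn samples was sequenced. The authors deposited FPKM per gene, with an identifier and a locus per the file headers; 49585 identifiers stood in each library, 49326 with a GENCODE symbol. HISAT2, SAMtools and Cufflinks were used, per the submitters' processing notes; their versions and options, and any use of strand, are not stated there. Those notes list the build mm8, but 45128 loci (91.5% of named genes) equalled the GRCm38 annotation, so coordinates are on GRCm38, numbered from 1.

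FPKM are not counts, so no count model was fitted. Depth was estimated from the steps of 1 fragment in low values of genes with a transcript of at least 3000 bases, with an assumed fragment length of 200 bases; 98.2% to 99.4% of values lay within 0.15 of a whole fragment. KO was compared with WT by limma 3.58.1 in R 4.3.3 (two-sided, trend and robust options) on log2(FPKM + 1), over genes with a mean of at least 1 FPKM, with a threshold of 0.05 on the Benjamini-Hochberg adjusted p. The procedure was tested on simulated data. The 10 genes, the partner and marker lists and the alternatives (pseudocount, filters, rescaling, quantile normalization, limma options, replicate block, trend removal, each library left out) were chosen with earlier results of these data known. Genes named are the 10, the 10 of nearest profile, and from each partner list the 2 nearest and the 1 farthest; predicted genes and pseudogenes were counted but not named, and 1 gene of near profile is not reported here by itself. Edge genes, overlapping genes and partners in reverse order were named after their values were seen. Trends were removed with a spline of 4 degrees of freedom on transcript length and GC content.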

Additional observations from a re-analysis of the deposited data

Results flagged for a closer look

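In a group of 4 libraries, a library was picked out when its distance to the nearest other one, over the group's whole range, was above Dixon's 95% value for 4 values. Chance picks out about 1 in 20 groups, and 20 groups of the 10 genes were looked at. These 12 values belong to the separation by which the genes were chosen and add nothing to it.

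KO 3 lay apart below the other KO libraries in 6 genes, with distances of 0.873 to 0.963 of the range. It held 17.2 FPKM of Thoc2, 25.7 of Ttc14, 22.0 of Mphosph8, 13.9 of Gcc2, 10.4 of Tut4 and 47.9 FPKM of Tcf4. WT 4 lay apart above the other WT libraries in 6 genes, with distances of 0.831 to 0.958. There the levels were 31.6 FPKM of Thoc2, 46.9 of Ttc14, 44.9 of Mphosph8, 31.4 of Gcc2, 184 of Pnisr and 16.3 FPKM of Tut4.

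Among the 10 genes nearest in profile, KO 3 lay apart at 44.8 FPKM of Gria2 and 3.43 FPKM of Col24a1. WT 4 lay apart at 78.5 FPKM of Gria2, 52.6 of Akap9, 41.1 of Dzip3, 11.6 of Bicd1 and 13.5 FPKM of Epha5. These genes were picked for likeness to the mean profile of the set, so their values add nothing to it either.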

How the results depend on the processing

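All 190 fold changes of the 10 genes over 19 alternatives kept their direction, and none passed the adjusted threshold; they ran between 0.15 and 0.91, with a lowest adjusted p of 0.198 (limma, without WT 4). The 10 genes had the same 4 libraries highest wherever that was recomputed on all 8 libraries. With 1 library left out, the high libraries that remained still lay above the low ones that remained, which is a looser rule. Of all tested genes, 1061 of 15023 had the order with both trends removed. By the looser rule, 2252 of 15061 had it without KO 3. The genes were chosen with most of their high libraries from KO, so the kept direction and order follow largely from the choice. Over the fits that left out 1 library, the number of genes past the threshold ran from 0 to 1 (Hpx, the haem-binding protein, without KO 2, adjusted p = 0.0487 by limma), and genes at unadjusted p under 0.05 from 325 (without KO 1) to 3151 (without WT 4). The range of the mean profile then ran from 0.94 to 1.05. Replicate numbers did not pair the libraries: deviations of same-numbered libraries correlated at −0.11, −0.055, 0.024 and 0.14 for numbers 1 to 4, and only number 4 matched itself best. With the replicate block, 0 genes passed and 790 of 15061 had an unadjusted p under 0.05, among them 6 of the 10 (lowest adjusted p = 0.654 by limma). With block and trend removal together, 833 of 15023 genes had such an unadjusted p, among them 5 of the 10. The causes of these shifts were not tested. Counting error was small for the 10 genes, but the number of libraries limits the comparison of genotypes, and FPKM do not show how reads were shared between overlapping genes or isoforms.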
